A study of Mus musculus with 11 samples.

Results

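The genes described here encode the 3 kinds of junction that hold epidermal keratinocytes (KCs) together: desmosomes, tight junctions and adherens junctions. They were chosen by name, as the protein-coding mouse genes of the numbered Cldn, Dsg, Dsc and Pkp and Tjp families, with Dsp, Jup, Ocln, Marveld2, Marveld3, Cgn, F11r, Cdh1, Cdh3, Ctnna1, Ctnnb1, Ctnnd1, Nectin1, Nectin2, Nectin4 and Afdn. The list held 55 of the 52550 genes of the series, and 38 of them were among the 14419 genes that passed the expression filter. The rule itself uses names only.

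Expression was measured by RNA-seq in 11 libraries of cells sorted from flank epidermis of female mice aged 8 weeks. LC-/- mice carried the huLangerin-DTA transgene, in which the human langerin promoter drives diphtheria toxin subunit A, so that Langerhans cells (LCs), the antigen presenting cells of the epidermis, are absent from birth. Controls were wild type (WT) littermates, and the absence is lifelong in every LC-/- library. KCs were sorted as live MHC-II-, CD45-, langerin-, c-kit- cells, and dendritic epidermal T cells (DETCs), the gamma-delta T cells that reside between KCs, as live MHC-II-, CD45+, langerin-, c-kit- cells. There were 3 WT and 3 LC-/- KC libraries, and 3 WT and 2 LC-/- DETC libraries. Libraries are named by the number they share in their labels, W1 to W3 for WT and L1 to L3 for LC-/-, with no DETC library for L1. Each library held between 13491075 and 19750440 reads on genes. Cd207, the gene of langerin, had a mean of 16.2 normalized counts in WT KCs and 0 in LC-/- KCs, and 28.3 and 2.21 in WT and LC-/- DETCs. Sorted KCs had few T cell transcripts, since 14 DETC genes summed to between 0.00220% and 0.00486% of a KC library. DETC libraries held keratinocyte transcripts. The keratinocyte share of a DETC library, taken as the median over 20 keratinocyte markers of its count relative to the mean KC count of the same genotype, was 17.0% in W1, 15.3% in W2, 18.6% in W3, 25.7% in L2 and 16.2% in L3. L2 stood apart with the highest share, and the differences between genotypes of the junction genes described in DETCs are given with and without it. Single markers ranged widely around these medians, from 6.31% to 35.9% in W1, 11.4% to 65.8% in W2 and 6.26% to 40.8% in W3. In L2 they ranged from 14.6% to 73.8% and in L3 from 5.22% to 47.6%. The source of these transcripts was not tested.

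Adherens junctions are built on classical cadherins, such as E-cadherin, and on nectins, which bind their counterparts on the next cell and are tied to actin through catenins and afadin. Desmosomes use desmogleins and desmocollins outside the cell and plakoglobin, plakophilins and desmoplakin inside it to connect keratin filaments of neighbouring KCs. Tight junctions seal the space between cells in the granular layer with claudins, occludin and the related MARVEL proteins, which bind the scaffold proteins of the ZO family and cingulin. LCs and DETCs both sit among KCs and adhere to them, in part through E-cadherin, and LCs extend their dendrites through KC tight junctions.

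In WT KCs the junction transcripts together took between 2.18% and 2.22% of all normalized counts, against 0.446% to 0.502% in WT DETC libraries. Levels were compared between genes as normalized counts per kb of exon, and those in WT KCs ran from 2.07 to 7794 in the plot of levels per kb. Dsp, which encodes desmoplakin, the link from desmosomes to keratin filaments, was the highest at 7794 normalized counts per kb (range 7608 to 8099, n = 3). Behind it stood Cldn4, a barrier-forming claudin, at 5890 (5763 to 6038), Cdh1 at 5441 (5086 to 6031) and the desmosomal cadherin Dsc3 at 5400 (5207 to 5689). The range of Cdh1 overlapped with those of Cldn4 and Dsc3, while Cldn4 lay wholly above Dsc3. Jup, the gene of plakoglobin, followed at 4406 (4253 to 4667) and Cldn1, the claudin whose loss breaks the skin barrier in newborn mice, at 4184 (4022 to 4329), and these ranges also overlapped. Each family had a few transcripts at high level and a tail of low ones. In the desmosome, Dsc2 at 16.0 and Pkp2 at 2.07 normalized counts per kb were far below Dsc3 and Pkp1 at 5400 and 3839. Dsg1a reached 2408 per kb, Dsg1b 300 and Dsg1c 5.29, but the coding sequences of these neighbouring paralogs are closely alike and the split of reads among them is uncertain. In the tight junction, Cldn12, Cldn8, Cldn23, Cldn3 and Cldn7 lay between 10.8 and 81.2 per kb.

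**Figure D1:**
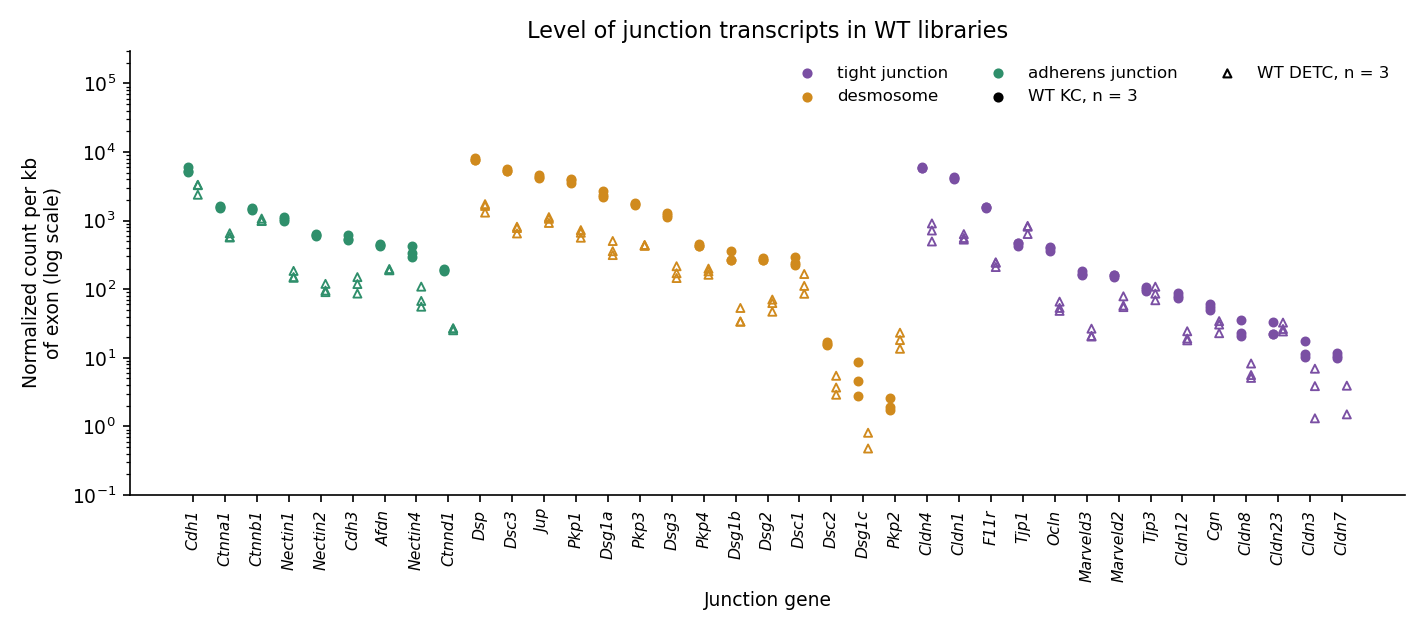
Normalized counts per kb of exon (log axis) of 37 tested junction genes in 3 WT KC libraries (filled circles) and 3 WT DETC libraries (open triangles), coloured by junction and ordered within each by the WT KC mean. Dsp, Cldn4, Cdh1 and Dsc3 lead in KCs; Pkp2 and Tjp1 are the members whose DETC points all lie above their KC points, and values of 0 are not drawn.

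The other 17 members did not pass the filter. They were Dsg4, a hair follicle desmoglein, and Cldn2, Cldn5, Cldn6, Cldn9, Cldn10, Cldn11, Cldn13 to Cldn20, Cldn22 and Cldn24, mostly claudins known from other organs. Among them Cldn10 was the most abundant, with at most 21.3 normalized counts, in KC library W2, and 5 had no read in any library. For those 5, a floor of 3 reads per library limits what the depth could show, and it covers counting error only.

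The first comparison asked whether junction transcripts of KCs differ between LC-/- and WT mice. In LC-/- KCs, 11 of the 38 tested members were higher and 0 were lower (limma, adjusted p under 0.05 over all genes tested), where 5.37% of all genes tested were higher and 1.85% lower. Among the 11 were the tight junction genes Cldn4, Ocln, Marveld2 and F11r, the adherens junction genes Cdh1, Ctnnd1 and Nectin2, and the desmosomal genes Pkp4, Dsg2 and Dsg3. By junction this was 5 of 15 tight junction, 3 of 9 adherens junction and 3 of 14 desmosomal members tested. The median log2 difference of the 38 was 0.22, against -0.01 for all genes, and 28 of the 38 differences were above 0, against 46.1% of all genes. LC-/- and WT libraries did not overlap for 18 members that were higher and 2 that were lower, with 16.6% and 14.9% of all genes as background. Together the junction transcripts took 2.34% to 2.44% of the counts of LC-/- KC libraries.

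**Figure D2:**
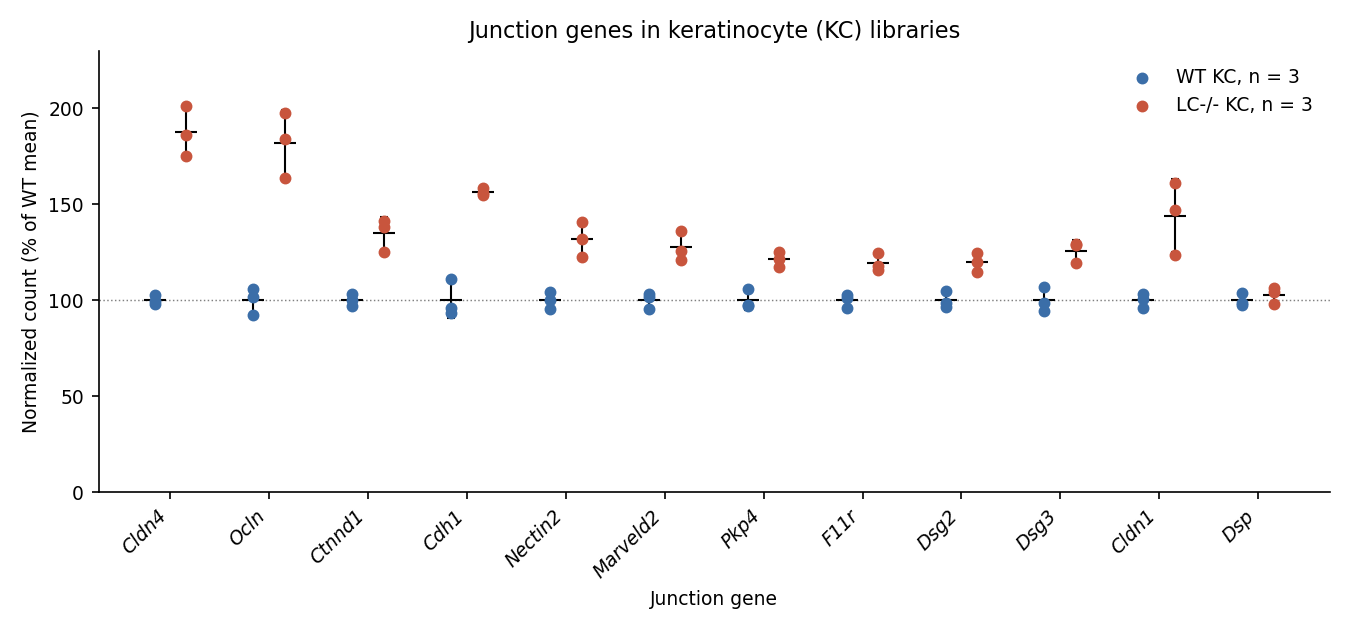
Normalized counts of 12 junction genes in 3 WT (blue) and 3 LC-/- (red) KC libraries, as a percentage of the WT mean of each gene, with bars for the mean and SD. Genes run from the lowest p to the right, with 10 called genes first and Cldn1 and Dsp, which were not called, last; Cldn4 and Ocln lie at 164% to 201% of the WT mean in LC-/- KCs, while Dsp overlaps.

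Of the 11 tested membrane proteins of the tight junction, 4 were called in KCs. Cldn4 had 10965, 10660 and 10466 normalized counts in WT KC libraries W1 to W3 and 18737, 21511 and 19933 in LC-/- libraries L1 to L3. All LC-/- values lay far above all WT values, a 1.87-fold difference (log2 0.91 ± 0.07 SE, adjusted p = 0.0169, limma). Ocln encodes occludin, a membrane protein of tight junction strands. It had 1690, 1538 and 1759 in WT and 3284, 2722 and 3062 in LC-/- KCs, again without overlap and 1.82-fold higher (log2 0.86 ± 0.09 SE, adjusted p = 0.0193). Marveld2 encodes tricellulin, the MARVEL protein of contacts where 3 cells meet, and F11r encodes junctional adhesion molecule A. Marveld2 rose from 552, 511 and 545 to 674, 730 and 648, a 1.28-fold difference (adjusted p = 0.0381). F11r rose from 4272, 4003 and 4217 to 4823, 4896 and 5187, which was 1.19-fold (adjusted p = 0.0411). These last 2 changes were small but wider than the spread within either genotype. Cldn1 had 20338, 19470 and 20957 in WT and 29793, 25010 and 32668 in LC-/- KCs, so that the groups did not overlap, but its difference did not pass the test (log2 0.52 ± 0.12 SE, adjusted p = 0.0616). Cldn8, a low transcript, had 48.2 to 84.7 in WT and 24.4 to 39.9 in LC-/- KCs, and this lower level was not called either (log2 -0.81 ± 0.31 SE, adjusted p = 0.175). Marveld3 was close to the threshold at log2 0.35 and adjusted p = 0.0538, and the remaining claudins overlapped between genotypes.

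Plaque proteins tie the tight junction to the cytoskeleton. Tjp1, the gene of the scaffold ZO-1, had 3336 to 3729 in WT and 4014 to 4655 in LC-/- KCs, did not overlap and was not called (log2 0.27 ± 0.07 SE, adjusted p = 0.0953, limma). Tjp3, the gene of ZO-3, had 344 to 398 in WT and 274 to 365 in LC-/- KCs (log2 -0.27, adjusted p = 0.249). Tjp3 overlaps Apba3 on the other strand, a gene of like level in these libraries, and the counting is not stated to use strand, so its reads cannot be assigned with certainty.

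In the adherens junction the main cadherin changed with its stabiliser. Cdh1, the gene of E-cadherin, had 23813, 23264 and 27585 in WT and 38728, 38476 and 39469 in LC-/- KCs. Its LC-/- libraries were nearly equal and all above WT, a 1.57-fold difference (log2 0.65 ± 0.09 SE, adjusted p = 0.0268, limma). Ctnnd1 encodes p120-catenin, which binds cadherin tails and slows their removal from the membrane. It had 1461, 1372 and 1415 in WT and 1954, 1773 and 2002 in LC-/- KCs (1.35-fold, adjusted p = 0.0251). Nectin2, a nectin that is also a ligand of the lymphocyte receptor DNAM-1, had 2163, 2065 and 2247 in WT and 2640, 2845 and 3039 in LC-/- KCs (1.31-fold, adjusted p = 0.0345). These 3 genes did not overlap between genotypes. Nectin1 and Ctnna1, the gene of alpha-catenin, also did not overlap, at log2 0.30 and 0.26, but had adjusted p of 0.0813 and 0.107. Ctnnb1, the gene of beta-catenin, differed by log2 0.06 ± 0.04 SE, and Afdn, the gene of the nectin linker afadin, by -0.10 ± 0.04 SE. Neither was called.

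Of the 14 desmosomal members tested, 3 were called in KCs. Dsp had 78231, 74119 and 73486 in WT and 73629, 80179 and 78574 in LC-/- KCs, which overlapped (log2 0.04 ± 0.12 SE, adjusted p = 0.875). The 3 called members differed by 1.20-fold to 1.26-fold. Dsg3, the desmoglein of basal layers, had 7960, 8346 and 9048 in WT and 10866, 10076 and 10929 in LC-/- KCs (1.26-fold, adjusted p = 0.0491, limma). Dsg2, a broadly expressed desmoglein, had 2168, 2217 and 2349 in WT and 2696, 2573 and 2791 in LC-/- KCs (1.20-fold, adjusted p = 0.0436). Pkp4, a p120-related plaque protein found in desmosomes and adherens junctions, had 2425, 2414 and 2631 in WT and 3112, 2918 and 3025 in LC-/- KCs (1.21-fold, adjusted p = 0.0390). None of these 3 overlapped between genotypes. Jup was higher in each LC-/- library than in each WT library at log2 0.28 with adjusted p = 0.134. Of the desmosomal members tied to upper layers, Dsg1a, Dsc1 and Pkp1 had log2 differences of -0.16, -0.25 and -0.07 and Dsg1b of 0.05. None of them was called. Cldn4 and Ocln of the tight junction, which seals the granular layer, were higher, so members of upper layers had no common direction.

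The number called in KCs depended on single libraries and on the test. Without W1, L1, W2 or L3 in turn, 0 members were called. Without W3 there were 3, Ocln and Cldn4 among them, and without L2 there were 5. In each of these 6 fits 17 or 18 members had an unadjusted p under 0.05 (limma). The shares of all genes in these 6 fits are not given, so these counts cannot be set against a background. On reads recovered from the table, edgeR and DESeq2 each called 17 higher and 0 lower, where 8.27% and 8.37% of all genes were higher. Quantile normalization gave 7 higher and 1 lower, Afdn at log2 -0.25, against 3.90% and 2.27% of all genes, and limma without the trend gave 6 higher, against 3.52%. Markers of other compartments were measured beside these results. In KCs 0 of 12 basal and 1 of 15 suprabasal markers (Lypd3) were called, with medians of -0.01 and 0.06, and 0 of 13 tested hair follicle markers. Of all genes 5.37% were called higher and 1.85% lower in this fit. The summed level of the 20 keratinocyte markers was 4.49% to 4.86% in WT and 4.17% to 4.65% in LC-/- KC libraries. In normalized counts, the measure tested, the sums overlapped, at 619118 to 668434 in WT and 620561 to 683684 in LC-/- KCs.

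To show the regulatory sequence beside the changes, promoters were taken from RefSeq (GRCm38.p6), which held a promoter window, 250 bases before to 50 after a transcript start, for 19 of the 38 tested members and for 7 of the 11 called in KCs. Cdh1 had no entry. Shown are the 250 bases before the start of Cldn4 (chr5:134946935-134947184, minus strand), the member with the lowest p in KCs, of Ocln (chr13:100552719-100552968, minus strand), called in both populations, and of Tjp1 (chr7:65371245-65371494, minus strand), with the lowest p in DETCs, at a start inside the longest gene model. Capitals mark matches on either strand to TGANTCA (AP-1), AACCNGTT (Grainyhead-like), CACCTG (the E-box bound by Snail and Zeb factors), GGGCGG (GC box), GGAATG (TEAD) and TGACGTCA (CRE).
Cldn4: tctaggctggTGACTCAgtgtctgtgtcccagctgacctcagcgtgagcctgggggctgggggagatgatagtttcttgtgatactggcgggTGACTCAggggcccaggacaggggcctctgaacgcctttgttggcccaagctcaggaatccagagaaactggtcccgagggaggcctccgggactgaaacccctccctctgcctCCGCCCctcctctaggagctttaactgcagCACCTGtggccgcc
Ocln: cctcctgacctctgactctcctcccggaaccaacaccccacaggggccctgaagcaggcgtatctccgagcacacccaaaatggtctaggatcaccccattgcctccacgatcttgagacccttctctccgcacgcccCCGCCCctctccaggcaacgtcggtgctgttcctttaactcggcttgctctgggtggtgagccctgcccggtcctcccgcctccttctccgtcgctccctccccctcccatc
Tjp1: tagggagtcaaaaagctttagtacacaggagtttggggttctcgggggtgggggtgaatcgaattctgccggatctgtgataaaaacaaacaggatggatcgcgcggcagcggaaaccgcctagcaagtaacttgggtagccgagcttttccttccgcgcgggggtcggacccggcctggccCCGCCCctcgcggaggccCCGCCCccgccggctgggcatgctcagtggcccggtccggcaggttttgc
The Cldn4 sequence holds AP-1 letters at 240 and 158 bases before the start and CACCTG at 14 bases before it. Ocln has 1 GC box in the printed stretch and Tjp1 has 2. Over the whole window, CACCTG or its reverse was in 5 of the 7 promoters of called members (Cldn4, Ocln, Nectin2, Marveld2 and F11r), against 20.3% of all 32544 promoters, GGGCGG in 6 of 7 against 35.9%, AP-1 letters in 2 of 7 (Cldn4 and F11r) against 7.79%, and CRE letters in 1 of 7 (Nectin2) against 1.80%. Grainyhead-like and TEAD letters were in 0 of 7, against 2.09% and 14.6%. In the other 12 members with a promoter the counts were 3 for CACCTG, 8 for GGGCGG and 0 for AP-1. They were 0 for CRE, 1 for Grainyhead-like and 1 for TEAD letters. The 6 called promoters with GGGCGG had 54.0% to 69.3% G and C bases and that of Ctnnd1 42.7%, against a median of 53.0% over all promoters. Base composition was not accounted for, so these shares do not set the called members apart. A match is a description of letters and not a bound site.

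The next question was which junction transcripts the DETC libraries of WT mice held, and whether they stood at the level that the keratinocyte share alone gives. In WT DETCs, 34 of the 38 members were lower than in WT KCs, 2 were higher and 2 were not called (limma), where 35.1% of all genes tested were lower and 41.0% higher. The median difference was log2 -2.20, and the 20 keratinocyte markers were all lower, with a median of -2.57. Relative to the mean WT KC count, 19 members were above the keratinocyte share in all 3 WT DETC libraries, 8 were at or below it in all 3 and 11 were mixed. The same count over all genes tested was not made, so these numbers do not set junction genes apart. In bulk libraries, few cells with much of a transcript and many cells with little of it cannot be told apart.

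**Figure D3:**
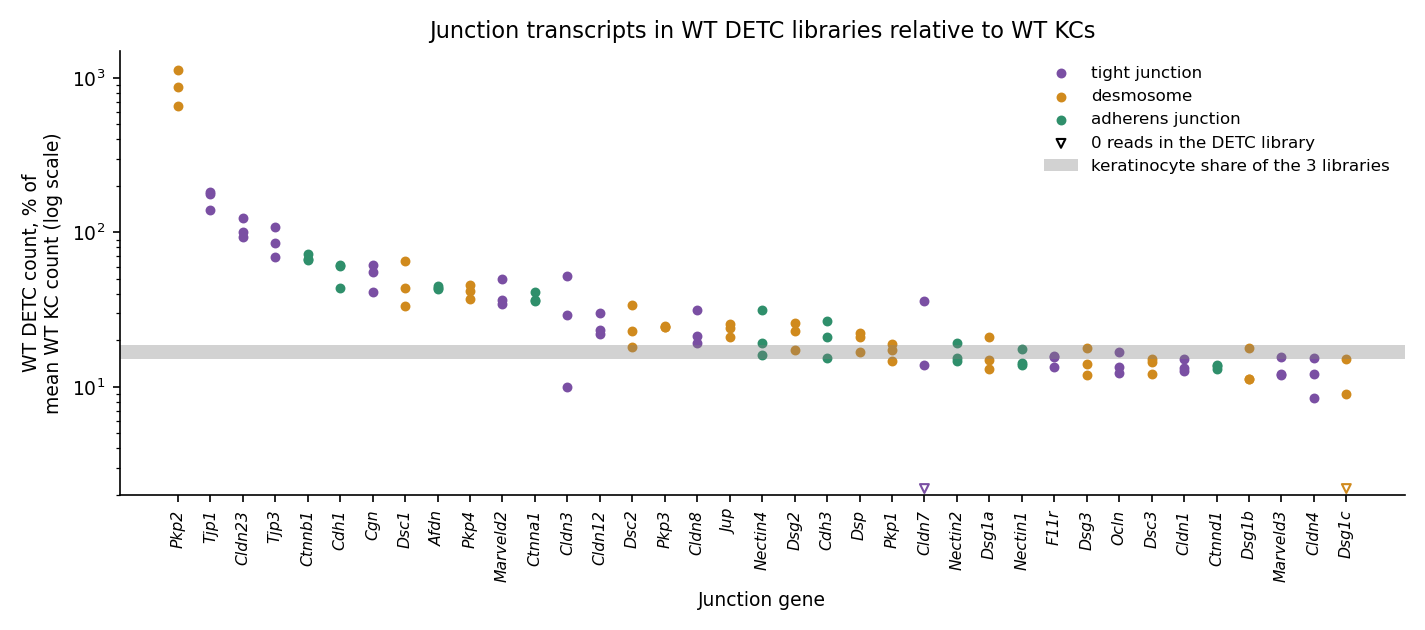
Count of each of 37 tested junction genes in 3 WT DETC libraries as a percentage of its mean count in WT KCs (log axis), ordered by the mean, with the grey band for the keratinocyte shares of the 3 libraries, 15.3% to 18.6%. Pkp2 and Tjp1 lie above 100% in all 3 libraries, and from Nectin4 to the right the points fall in, around or below the band. The band spans the 3 medians only, while the highest single markers reached 35.9% to 65.8%.

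Pkp2 and Tjp1 were the members higher in WT DETCs. Pkp2, a plakophilin best known from the heart, had 124, 72.6 and 97.2 normalized counts in WT DETC libraries W1 to W3 and between 9.22 and 13.8 in WT KCs. No KC value came near a DETC value, and the fold was 8.11 (log2 3.02 ± 0.27 SE, adjusted p = 5.02e-06, limma). Tjp1 had 4987, 6547 and 6372 in WT DETCs and 3706, 3336 and 3729 in WT KCs, again without overlap and 1.65-fold higher (log2 0.72 ± 0.11 SE, adjusted p = 0.000205). ZO-1 is best known as the scaffold of epithelial tight junctions. Cldn23 and Tjp3, both low, did not differ beyond their spread: Cldn23 had 44.7, 60.2 and 48.6 in WT DETCs and 41.0, 62.1 and 41.5 in WT KCs (log2 0.10 ± 0.23 SE), and Tjp3 had 256, 404 and 320 against 375, 398 and 344 (log2 -0.21 ± 0.15 SE).

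Cdh1, Ctnnb1 and Ctnna1 of the cadherin and catenin complex were lower in WT DETCs than in KCs but above the keratinocyte share, unlike Ctnnd1. The highest single keratinocyte marker reached 35.9% in W1, 65.8% in W2 and 40.8% in W3. Ctnnb1 lay above these values in each WT library and Cdh1 in W1 and W3, while Ctnna1 was near or below them. Ctnnb1, which also acts in Wnt signalling, had 5564, 5194 and 5122 in WT DETCs and 7594, 7477 and 8010 in WT KCs, or 72.3%, 67.5% and 66.6% of the mean KC count (log2 -0.54 ± 0.07 SE, adjusted p = 9.82e-05, limma). Cdh1 had 10917, 15036 and 15229 in WT DETCs, or 43.9%, 60.4% and 61.2% of the mean KC count (log2 -0.87 ± 0.15 SE, adjusted p = 0.000416). That made Cdh1 the highest junction transcript of WT DETC libraries per kb, at 3001 normalized counts per kb (range 2387 to 3329), above Dsp at 1563 (1310 to 1739). Afdn stood at 43.1% to 45.1%, Pkp4 at 37.2% to 45.7% and Ctnna1 at 35.9% to 41.4% of the mean KC count. In all, 12 members were at 30% or more of the mean KC count in each WT DETC library, again without a count over all genes. The desmosomal plaque genes Dsp, at 16.8%, 22.3% and 21.0%, and Jup, at 21.0%, 24.1% and 25.5%, were closer to the keratinocyte share.

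At the lower end were genes near or under the keratinocyte share. Ctnnd1 had 184, 195 and 197 in WT DETCs, at most 13.9% of the mean KC count, against 35.9% to 72.3% for Ctnna1 and Ctnnb1. Cldn4 had 902, 1653 and 1304, or 8.44%, 15.5% and 12.2%. Marveld3 had 87.3, 68.5 and 67.1, or 15.6%, 12.2% and 12.0%. Dsg1b had 133, 211 and 134, or 11.2%, 17.8% and 11.3%, and Dsg1c had 0, 3.30 and 1.95, the last gene being too low for a useful ratio and both being uncertain as paralogs of Dsg1a. Cldn1, Dsc3, Ocln, Dsg3 and Nectin1 were also below the share in each of the 3 libraries. The 8 members at or below it in all 3 held Cldn1, Ocln and Marveld3 of the tight junction. The share of the mean KC count was then subtracted from each DETC library, a step chosen after the data were seen. Values under 0 were set to 0. In that fit 36 of 38 members were called, 2 higher and 34 lower, against 34.5% and 42.9% of all genes. Subtraction can only lower DETC values, so the 34 lower calls are no check of the lower levels above. Tjp1 was at log2 0.57 and Pkp2 at 2.99, both still higher.

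T cells bind junction proteins of KCs through receptors of their own. All 7 listed partners were higher in WT DETCs than in WT KCs, where 41.0% of all genes tested were. Itgae, the CD103 chain of the integrin that binds E-cadherin, had a mean of 23662 ± 2666 (SD, n = 3) normalized counts in WT DETCs and 1.93 ± 1.11 in WT KCs, and its partner chain Itgb7 had 11093 ± 1001 and 4.65 ± 2.41. Jaml, a receptor for Cxadr, had 3317 ± 247 in WT and 2532 ± 572 (n = 2) in LC-/- DETCs. None of the 7 was called between genotypes in either population. Itgae differed by log2 0.03 ± 0.14 SE in DETCs. For Tigit, Cd96 and Jaml the 2 LC-/- libraries both lay below the 3 WT ones, as for 16.5% of all genes tested. Their log2 differences were -0.39, -0.25 and -0.41 with adjusted p of 0.155, 0.167 and 0.167 (limma).

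The same comparison of genotypes in DETCs called fewer members. In LC-/- DETCs 3 members were higher, Tjp1 and Ocln among them, and 0 were lower, where 3.13% of all genes tested were higher and 0.430% lower. The median log2 difference of the 38 was 0.39, against 0.02 for all genes, and 33 of 38 were above 0, against 52.4% of all genes. LC-/- and WT libraries did not overlap for 11 members that were higher and 1 that was lower, with 21.3% and 16.5% as background. Together the junction transcripts took 0.669% of the counts of L2 and 0.465% of those of L3, against 0.446% to 0.502% in WT. In normalized counts the sums were 122072 and 85607, against 67636 to 82384. LC-/- library L2 had the higher value of both LC-/- libraries for Tjp1 and Ocln, and its keratinocyte share was 25.7% against 15.3% to 18.6% in WT.

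**Figure D4:**
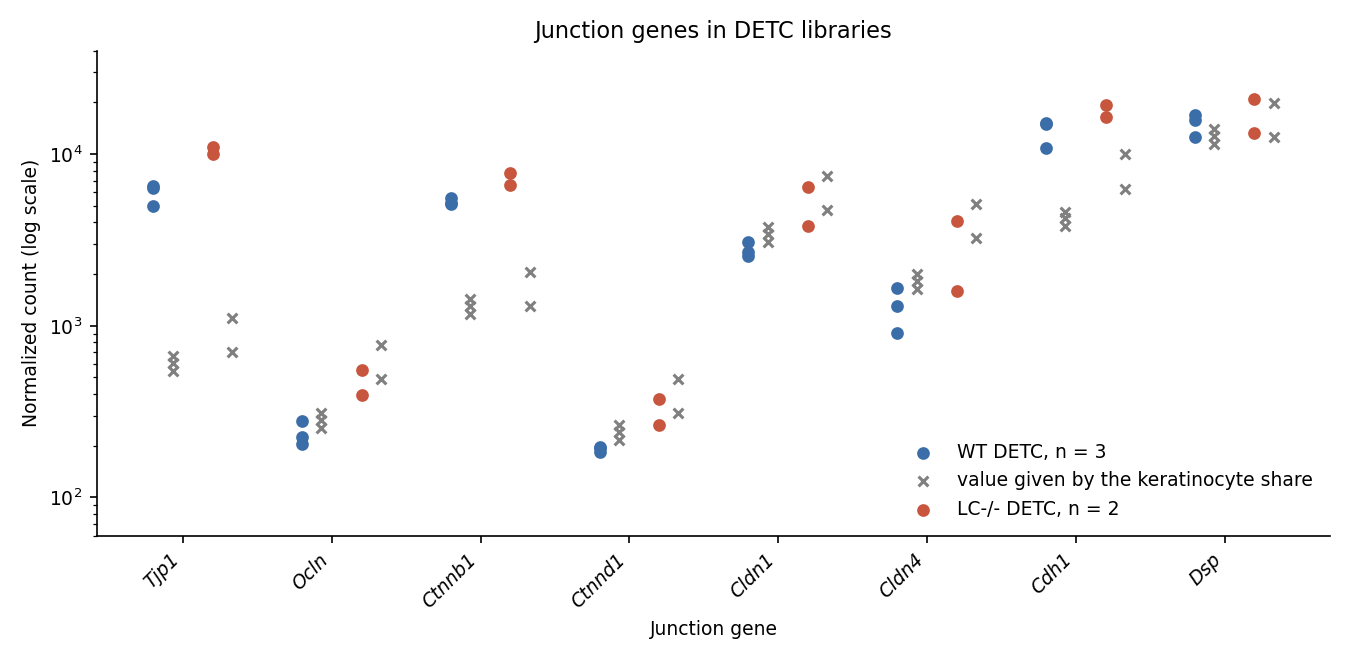
Normalized counts (log axis) of 8 junction genes in 3 WT (blue) and 2 LC-/- (red) DETC libraries, with grey crosses for the value that the keratinocyte share of each library gives, the share times the mean KC count of the same genotype. Tjp1, Ctnnb1 and Cdh1 lie well above their crosses in all 5 libraries, while Ocln, Ctnnd1, Cldn1 and Cldn4 lie near or below them.

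Tjp1 had 4987, 6547 and 6372 normalized counts in WT DETCs W1 to W3 and 11073 and 10013 in LC-/- DETCs L2 and L3. Both LC-/- libraries were well above WT, with a 1.78-fold difference (log2 0.83 ± 0.13 SE, adjusted p = 0.0235, limma). In L2 and L3 this was 256% and 231% of the mean LC-/- KC count, above the keratinocyte share many times over. After subtraction of the share the difference was log2 0.86 with adjusted p = 0.156, in a fit that called 0.00% of all genes tested. Without L2 it was log2 0.76 with an adjusted p of 0.116. Ctnnb1, also above the share in all 5 libraries, had 5564, 5194 and 5122 in WT and 7804 and 6591 in LC-/- DETCs, without overlap, but was not called (log2 0.44 ± 0.10 SE, adjusted p = 0.0621). It was at log2 0.47 after subtraction and 0.32 without L2.

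Ocln was called at a level the keratinocyte share reaches. Ocln had 204, 225 and 278 in WT and 552 and 397 in LC-/- DETCs, a 2.00-fold difference (log2 0.999 ± 0.19 SE, adjusted p = 0.0333, limma). The 2 genotypes did not overlap and L2 held the higher value. In LC-/- DETCs Ocln was at 18.3% and 13.1% of the mean LC-/- KC count, under the shares of 25.7% and 16.2%. Subtraction took Ocln to 0 in all 5 libraries. Without L2 it was at log2 0.76 with an adjusted p of 0.162. It was not called without W1, W2 or W3 either, while Tjp1 was called without W1 or L3. Ctnnd1 and Cldn1, which were not called, were also below the share in all 5 libraries. Ctnnd1 had 184 to 197 in WT and 373 and 265 in LC-/- DETCs (log2 0.71, adjusted p = 0.0636, and 0.46 without L2), and Cldn1 had 2561 to 3079 in WT and 6398 and 3813 in LC-/- DETCs (log2 0.83, adjusted p = 0.0649, and 0.46 without L2).

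Cdh1, Cldn4 and Dsp were not called in DETCs. Cdh1 had 19377 and 16437 in LC-/- DETCs against 10917 to 15229 in WT, without overlap (log2 0.40 ± 0.17 SE, adjusted p = 0.247, and 0.28 without L2). Cldn4 had 4064 in L2 and 1600 in L3 against 902 to 1653 in WT, so that L3 lay within the WT range (log2 1.03 ± 0.38 SE, adjusted p = 0.190, and 0.36 without L2). Dsp had 20929 in L2 and 13331 in L3 against 12656 to 16800 (log2 0.16 ± 0.20 SE, adjusted p = 0.734, and -0.17 without L2). Pkp2, the member with the highest DETC to KC ratio, had 84.5 and 85.1 in LC-/- DETCs, inside the WT range of 72.6 to 124 (log2 -0.17 ± 0.25 SE, and -0.17 without L2). The median difference of the 38 fell to 0.04 without L2 and rose to 0.71 without L3, and the number called was 1 without W1, 0 without W2, W3 or L2 and 13 without L3. With all 5 libraries edgeR called 3 (2.84% of all genes higher) and DESeq2 8 (6.55%), while limma called 0 with quantile normalization (1.03% of all genes in either direction) and 0 without the trend (0.00%), with 9 and 7 members at an unadjusted p under 0.05.

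Other measures were read beside these DETC results, and the summed keratinocyte markers were above the WT range in L2 only. Of the 20 keratinocyte markers 16 had a difference above 0 in DETCs, against 52.4% of all genes, with a median of log2 0.23. Lypd3 was called, where 3.13% of all genes were called higher. They summed to 0.713% to 0.837% of WT and to 1.01% (L2) and 0.591% (L3) of LC-/- DETC libraries, none of them being at 0. In normalized counts the marker sums were 107998 to 136491 in WT, 184014 in L2 and 108686 in L3, so that L3 lay within the WT range. Immediate early genes respond to dissociation of tissue among other stimuli. Of 16 such genes, 13 were higher in both LC-/- DETC libraries than in any WT one, against 21.3% of all genes. Their median was log2 0.31, and Egr3 and Ier3 were called, where 3.13% of all genes were called higher. In KCs 0 of 16 were called, where 5.37% of all genes were higher and 1.85% lower, and the median was 0.00. The 14 DETC genes went the other way, summing to 1.46% to 1.57% of WT and to 1.24% (L2) and 1.24% (L3) of LC-/- DETC libraries without overlap. Differences were below 0 for 11 of the 14, where 52.4% of all genes were above 0. Without overlap, 7 were lower, against 16.5% of all genes. Trdv4, a T cell receptor delta gene, was called lower (log2 -1.04, adjusted p = 0.0279, limma), where 0.430% of all genes were. In normalized counts the sums of the 14 genes were 238144 to 246515 in WT and 226279 (L2) and 227626 (L3) in LC-/- DETCs, a smaller relative gap. The sum was as low in L3 as in L2. The part of these measures in the junction results was not tested beyond the subtraction and the fits without L2.

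Whether the change in DETCs differs from that in KCs was tested as an interaction. For 0 of 38 members did it pass (limma), where 0.798% of all genes tested did. An unadjusted p under 0.05 was found for 2 members, both higher in DETCs (7.30% of all genes). edgeR called 0 (0.791% of all genes), DESeq2 called 1, Tjp1 (2.14%), and after subtraction of the keratinocyte share 1, Pkp3, was lower (1.17%). Tjp1 changed by log2 0.27 ± 0.07 SE in KCs and 0.83 ± 0.13 SE in DETCs, a difference of 0.56 ± 0.16 SE (unadjusted p = 0.00454, adjusted p = 0.166, limma). Ctnnb1 changed by 0.06 in KCs and 0.44 in DETCs, a difference of 0.38 ± 0.12 SE (adjusted p = 0.230). For Ocln the log2 differences were 0.86 and 0.999 and for Cldn4 0.91 and 1.03, both closer together than their errors. Cdh1 was the reverse in order, with 0.65 in KCs and 0.40 in DETCs, a difference of -0.25 ± 0.21 SE.

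**Figure D5:**
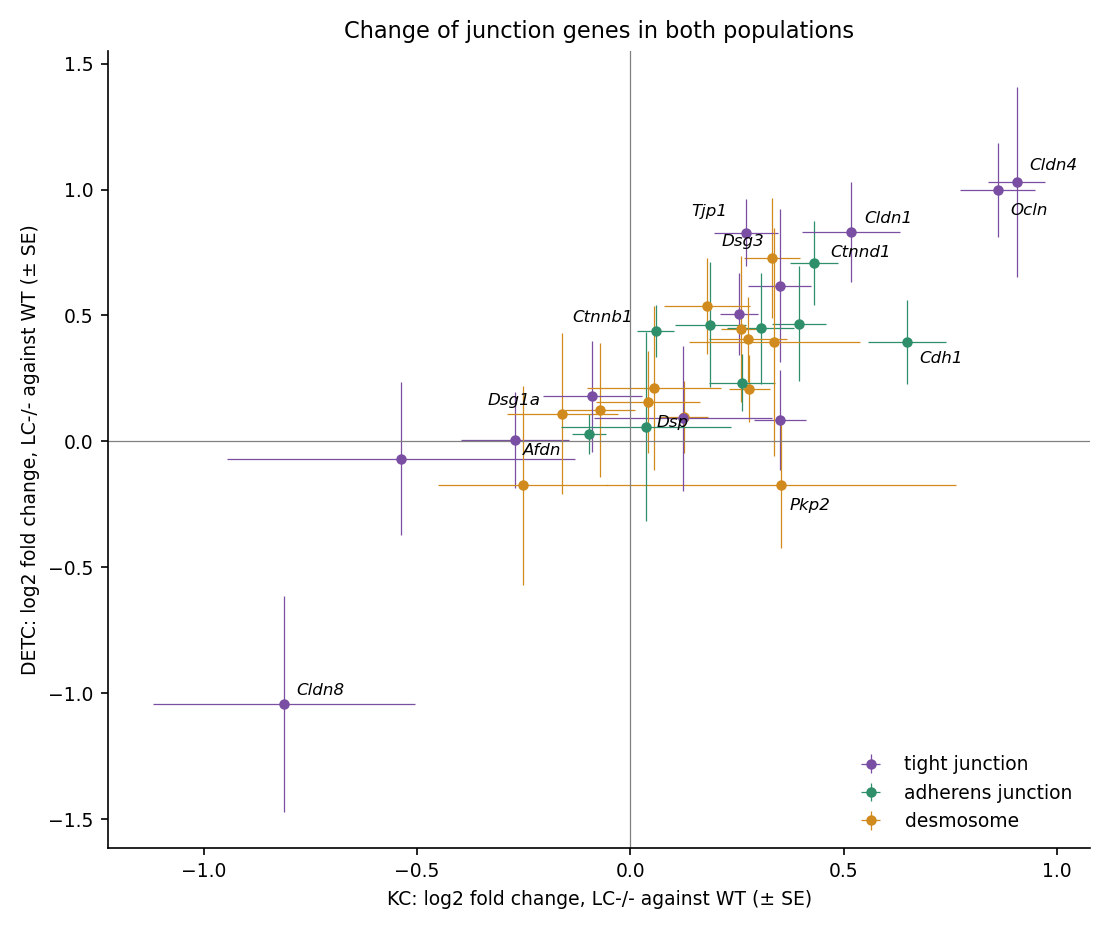
Log2 difference between LC-/- and WT of 34 junction genes with a WT mean of at least 10 normalized counts in both populations, in KCs (x axis) and DETCs (y axis), with bars for the SE and colours for the junction. Cldn4 and Ocln are highest on both axes, at 0.86 to 0.91 in KCs and 0.999 to 1.03 in DETCs, Tjp1 and Ctnnb1 stand higher in DETCs, and Cldn8 is lowest on both.

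Other genes of the junctions were read from lists of 70 genes, of which 65 were tested. In LC-/- KCs 13 of the 65 were higher and 2 lower (limma), against 5.37% and 1.85% of all genes. Among adhesion proteins beside the members, Epcam, which binds and stabilises claudins, had 5995, 5799 and 6564 in WT and 9869, 9484 and 9970 in LC-/- KCs, without overlap (log2 0.68 ± 0.06 SE, adjusted p = 0.0186). Pvr, a nectin-like ligand of Cd96, Cd226 and Tigit, was higher too (log2 0.86, adjusted p = 0.0193). Of 16 polarity and scaffold genes only Crb3, a Crumbs protein of the apical side, passed (log2 0.55, adjusted p = 0.0415). Magi3, a membrane-associated guanylate kinase scaffold, was at log2 1.09 and did not pass (adjusted p = 0.0560).

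Of 12 tested genes that tie cadherins to actin, 5 were higher and 1 lower in LC-/- KCs, where 5.37% and 1.85% of all genes were. Zyx, the gene of zyxin, had 2347 ± 114 (SD, n = 3) in WT and 4172 ± 183 (n = 3) in LC-/- KCs (log2 0.83, adjusted p = 0.0142, limma), and Vcl, the gene of vinculin, which binds alpha-catenin under tension, had 4822 ± 218 and 6933 ± 703 (log2 0.52, adjusted p = 0.0353). Lima1, Actn4 and Limd1 were higher by log2 0.64, 0.39 and 0.27. Ajuba, a LIM protein of the zyxin family like Limd1, was lower, with 1535 ± 65.5 and 1080 ± 62.1 (log2 -0.51, adjusted p = 0.0198). Of 5 cornified envelope and desmosome partner genes 0 passed the test, and Perp, a desmosomal membrane protein, differed by log2 0.01 ± 0.10 SE.

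Regulators of junctions went in both directions in KCs. Grhl1 was higher, with 2721 ± 199 (SD, n = 3) in WT and 3550 ± 244 in LC-/- KCs (log2 0.38, adjusted p = 0.0492, limma), and its relative Grhl2 lower, with 1749 ± 171 and 1273 ± 2.12 (log2 -0.45, adjusted p = 0.0371). Both encode Grainyhead-like factors, which activate junction genes such as Cdh1 and Cldn4 in epithelia. Grhl3 was at log2 0.44 and was not called (adjusted p = 0.136). Klf5 (log2 0.41), the membrane protease St14 (0.63) and its inhibitor Spint1 (0.39) were higher as well. The repressors of Cdh1 Snai1, Zeb1 and Zeb2 were at means of 0 to 3.74 normalized counts in KCs and had no call there, and Snai2 at 1030 and 1043 did not differ beyond its spread. Against the 15 calls among these lists in KCs, there were 9 without L2, 8 of them among the 15, 4 without W3, 3 of them among the 15, 1 without W2 and 0 without W1, L1 or L3.

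In LC-/- DETCs, 5 of the 65 were higher and 0 lower (limma), against 3.13% and 0.430% of all genes. The 5 were Pvr, Epcam, Vcl, Lima1 and Zeb1. Zeb1, a repressor that binds CACCTG and is expressed by T cells, had 2330, 3210 and 3533 in WT and 7972 and 6517 in LC-/- DETCs, without overlap (log2 1.28 ± 0.18 SE, adjusted p = 0.0168). In WT and LC-/- KCs its means were 2.42 and 0.707. Pvr had 492, 541 and 488 in WT and 847 and 825 in LC-/- DETCs (log2 0.72 ± 0.10 SE, adjusted p = 0.0161), and at log2 -0.31 it was closer between WT DETCs and KCs than most junction genes. Epcam, Vcl and Lima1 were at log2 0.72, 0.65 and 1.03, with the higher of both LC-/- values in L2 for each of the 3. Without L2 the log2 differences were 1.13 for Zeb1, 0.70 for Pvr, 0.49 for Epcam, 0.47 for Vcl and 0.70 for Lima1, none of them called. After subtraction of the keratinocyte share, in the fit that called 0.00% of all genes, those of Zeb1, Pvr and Vcl were 1.27, 0.58 and 0.54. These kept their direction, while Epcam turned to -4.10 and Lima1 was at 4.15. Subtraction set values under 0 to 0, which can inflate the fold of genes near the share. In L2 the Epcam count lay just under its share and became 0, so its fold rests on that library. Leaving out L3 raised the 5 to 16, and leaving out W1, W2, W3 or L2 gave 2, 0, 1 and 0.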

How the data were processed

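Poly-A RNA of sorted KCs and DETCs was sequenced. Per the labels and the methods of the study, cutadapt, hisat2 (GRCm38) and featureCounts gave reads per gene, and the authors deposited a signal, the count over a median-of-ratios size factor, here called the normalized count. The table held genes at 0 in every library, and 0 of its sample columns were left out. Names, positions and exon lengths came from GENCODE mouse annotation, matched to 52403 of 52550 identifiers.

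Genes with CPM above 1 in at least 2 libraries were tested on log2(normalized count + 1), which understates folds of low genes, with limma 3.58.1 (eBayes, trend; R 4.3.3) and Benjamini-Hochberg adjustment over all 14419 genes. edgeR 4.0.16 and DESeq2 1.42.0 were run on whole reads recovered from the table. Fits were tested on simulated counts. Members and lists were chosen with earlier results of these data known. Values per library were given for members called, those with the 5 lowest p of each genotype comparison, the 5 highest and 5 lowest DETC to KC ratios, Cdh1, Dsp and Cldn1, and from the other lists for genes called and the 2 with the lowest p of each. Values of 2 listed genes are not reported here, though counts include them. Other genes named were chosen after their values were seen. The labels do not say whether libraries with the same number share an animal, and p-values measure the spread between these libraries.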

Additional observations from a re-analysis of the deposited data

How the results depend on the processing

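Pseudocounts of 0.5 and 8 and a minimum mean of 10 left the number of junction genes called within 1.5 times of that reported in every comparison. Size factors computed within a population did so for the genotypes in KCs and in DETCs, the only comparisons in which they were used. In KCs (11 reported), 2 were called with no filter on low values, 6 without the trend, 4 in 1 fit over all 11 libraries, and 17 each with edgeR and DESeq2; the median log2 difference fell to 0.0872 with quantile normalization. Leaving out 1 KC library at a time gave 0 to 5. Of the 65 other junction genes (15 reported), 3 were called with no filter and 0 to 9 with 1 library left out (0 without W1, L1 or L3, 1 without W2, 4 without W3 and 9 without L2). In DETCs (3 reported), 0 were called with no filter, with quantile normalization, without the trend and after subtraction of the keratinocyte share (an alternative chosen after seeing the data), with 10, 9, 7 and 4 at an unadjusted p under 0.05, and 8 each with DESeq2 and in 1 fit over all 11 libraries. Leaving out 1 DETC library gave 0 to 13, with 0 without W2, W3 or L2, 1 without W1 and 13 without L3. The median log2 difference was 0.0367 without L2, 0.710 without L3 and -0.0203 after subtraction. A fit without 1 of the LC-/- DETC libraries assumes that the lone library varies like the WT ones. Of the 65 other genes (5 reported), DETC calls were 0 with no filter, 0 without the trend, 2 with quantile normalization, 8 with DESeq2, 0 after subtraction, and 0 to 16 with 1 library left out. For the interaction (0 reported, 2 at an unadjusted p under 0.05), DESeq2 called Tjp1 as the 1 member and subtraction called 1, Pkp3, lower. Between WT populations every setting stayed within 1.5 times of the 36 reported, though subtraction can only lower DETC values. Quantile normalization moved the median of all genes from log2 0.07 to -0.25. The shares of all genes called with 1 library left out, or at an unadjusted p under 0.05 in these settings, are not given. The causes of the differences between settings were not tested. Deviations of libraries with the same number correlated at -0.05 to 0.14 across genes, which cannot show whether they share an animal. The main fits did not use the number as a pairing. With the number as a replicate block, 0 members were called for the interaction and 36 between WT populations. Depth limits low members such as Dsg1c, Cldn7, Cldn3 and Pkp2 in KCs, where single reads weigh on the fold.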
